A study of Mus musculus with 12 samples.

Results

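The interferon response gene families examined here are 71 of the 17175 genes measured in mouse small intestine. They were chosen by name: every gene whose symbol starts with Ifi and a digit, Ifit, Oas, Gbp and a digit, Isg, Stat and a digit, or Irgm, together with the numbered Irf genes except Irf4, and Psmb8 and Psmb9. The expression matched 72 genes, and leaving out Irf4 gave 71. The choice used names and no measured value. The set holds 7 Stat and 8 Irf transcription factors, 6 Ifit, 10 Oas and 10 Gbp genes, Isg15, and 10 genes of the Ifi200 or PYHIN family. It also holds 3 IRG GTPases (Irgm1, Irgm2 and Ifi47), 5 Ifitm genes, 9 other Ifi and Isg20 genes, and the 2 proteasome genes.

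The RNA came from small intestine of mice with the genotype WT or Bmpr1a cKO. Bmpr1a is a receptor of bone morphogenetic proteins (BMPs), and cKO was read as its conditional knockout. Each genotype was sampled in a proximal and a distal segment, with 3 libraries in each of the 4 groups. The series asks how BMP signals in the epithelium relate to villus length along the small intestine. The labels name neither a Cre driver or target cell nor strain, age, sex or any treatment. Whether libraries within a group stem from separate mice is not stated, so each p-value measures only the spread between these libraries. The source is labelled small intestine without further sorting, and in such bulk RNA fewer cells of a type and less RNA per cell cannot be told apart.

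Interferons are secreted proteins that warn cells of infection. Type I interferon and interferon lambda act through JAK kinases on transcription factors of the STAT family, which join IRF9 and bind the interferon-stimulated response element (ISRE) in target promoters. Interferon gamma, made mainly by lymphocytes, acts on a different element, the GAS site. In the intestine, interferon lambda acts mainly on epithelial cells, and microbial and viral signals keep a basal level of these genes on.

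Depth was 11242024 to 17722756 recovered reads per library. Reads of 12 mitochondrial genes made up 17.4% to 26.0% of the library in WT proximal, 22.3% to 37.7% in WT distal, 9.75% to 14.8% in cKO proximal and 9.95% to 27.7% in cKO distal intestine. The share did not overlap between genotypes proximally and overlapped in part distally. A model holding both therefore cannot fully separate share from genotype. Both cKO libraries numbered 1 held reads of 0 of 4 Y-linked genes, whereas the other 10 libraries held reads of all 4. The labelled tissue was checked with 6 epithelial markers, whose summed scaled count lay between 102224 and 234403 in the 12 libraries. Of 5 BMP-induced genes (Id1, Id2, Id3, Smad6 and Smad7), all 5 fell in cKO in both segments. The scaled count used throughout is (reads + 1) divided by a factor for library size. A called gene has a Benjamini-Hochberg adjusted p under 0.05 in limma over all 17175 genes, and log2 fold changes are on the log2(value + 1) scale.

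Promoter sequence of the members was searched for the ISRE, whose letters the choice by name did not use. Many of these names refer to induction by interferon, so the choice by name is not independent of that element. RefSeq promoter windows (build GRCm38.p6, 250 bases before to 50 bases after the start site) were matched by symbol to 58 of the 71 genes. The ISRE core searched was GAAANNGAAA on either strand, where N is any base. It lay in a window of 30 of the 58 genes, or 51.7%, beside 3.99% of all 27025 genes with a window. Counted by window, 42.5% of the members' 73 windows and 3.44% of all 32851 windows held it. The share was 8 of 9 Ifi200 genes, 5 of 5 Gbp genes, 5 of 6 Ifit genes, 4 of 8 Oas genes, 2 of 3 IRG GTPases, 2 of 6 Stat, 2 of 5 Ifitm and 1 of 7 Irf genes, and Isg15, but 0 of 6 of the other Ifi and Isg20 genes and 0 of 2 proteasome genes. The GAS letters TTCNNNGAA, on either strand, lay in windows of 13 of the 58 genes, or 22.4%, and in 17.8% of their windows against 8.3% of all windows. Both motifs lay in 6 of the 73 windows, where matches may overlap. The 5 Gbp genes with a window all lie on chromosome 3, and the 5 on chromosome 5 have none. The windows of Ifit1 and Ifit1bl2 overlap on opposite strands, so the same bases count as cores of both genes. Close copies, such as Ifi208 and Ifi213 or Oas1a and Oas1g, were also counted singly. The genes counted are therefore not independent. A match describes letters only, and binding was not measured.

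The stretches below show the core in some of the 30 genes that hold one, with the bases of the core in capitals (GAAA, any 2 bases, GAAA, or the reverse complement). Ifi209, Ifi204, Gbp9, Ifi27l2a, Stat5a and Stat5b, called below, are not among those 30, and some members have no window. Each is 40 bases of GRCm38.p6, written 5′ to 3′ on the gene's strand.
Isg15 (chr4:156200860-156200899, minus strand): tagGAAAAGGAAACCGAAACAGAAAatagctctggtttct
Ifit3 (chr19:34583392-34583431, plus strand): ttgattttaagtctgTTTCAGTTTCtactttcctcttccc
Ifit3b (chr19:34607788-34607827, plus strand): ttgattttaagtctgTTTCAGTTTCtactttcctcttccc
Oas1a (chr5:120907515-120907554, minus strand): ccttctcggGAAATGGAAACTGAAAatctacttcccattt
Oas1g (chr5:120887601-120887640, minus strand): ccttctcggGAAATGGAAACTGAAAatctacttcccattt
Irgm1 (chr11:48871420-48871459, minus strand): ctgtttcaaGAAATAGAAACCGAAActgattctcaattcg
Ifi208 (chr1:173673592-173673631, plus strand): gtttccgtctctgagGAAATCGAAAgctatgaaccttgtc
Ifi213 (chr1:173599321-173599360, minus strand): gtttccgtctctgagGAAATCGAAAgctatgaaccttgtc
Ifi206 (chr1:173491334-173491373, minus strand): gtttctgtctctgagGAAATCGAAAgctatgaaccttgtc
Ifi203 (chr1:173942503-173942542, minus strand): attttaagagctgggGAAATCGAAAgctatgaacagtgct
Gbp2b (chr3:142594695-142594734, plus strand): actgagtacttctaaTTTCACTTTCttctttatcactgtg
Gbp5 (chr3:142496754-142496793, plus strand): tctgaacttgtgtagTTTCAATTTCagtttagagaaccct
Ifit3 and Ifit3b share all 40 bases, as do Oas1a and Oas1g, and Ifi208 and Ifi213. In Isg15, Oas1a, Oas1g and Irgm1, cores overlap one another.

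**Figure D1:**
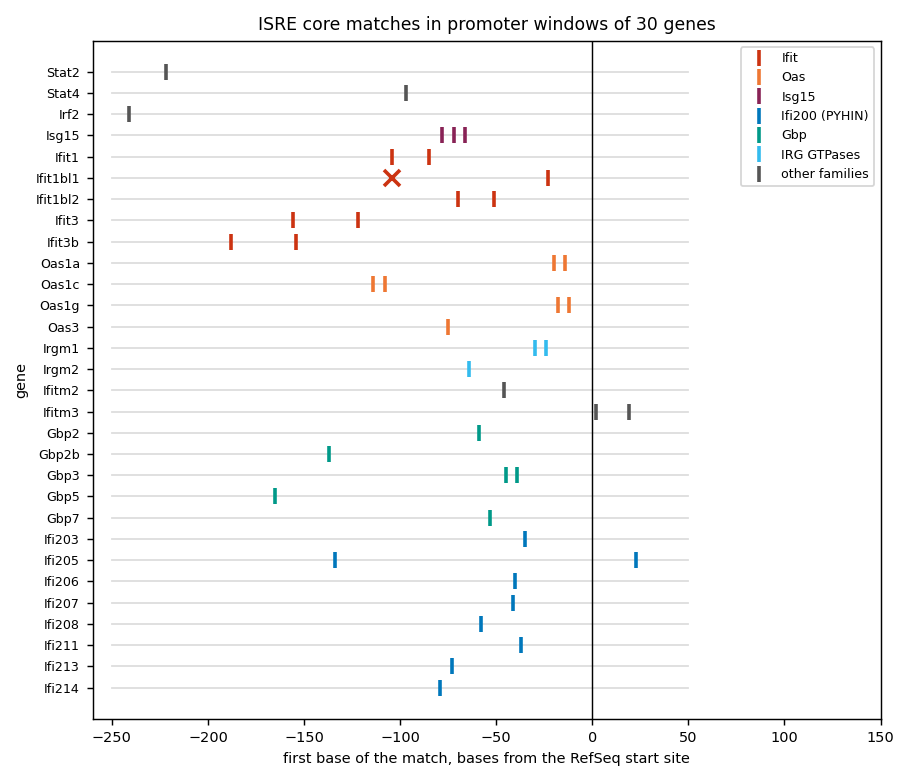
Position of each ISRE core match (x axis, bases from the RefSeq start site to the first base of the match) in the promoter windows of the 30 genes that hold one (y axis). Grey lines span the window, colours mark the family, and a cross marks the further window of Ifit1bl1; in all but Ifitm3 and 1 match of Ifi205 the matches lie before the start site.

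Many of these genes stand in clusters of close copies. In the GENCODE M21 annotation (GRCm38), the 10 Ifi200 genes lie within 563 kb of chromosome 1, from 173468485 to 174031810. The 6 Ifit genes lie within 99 kb of chromosome 19, from 34550694 to 34650009. The Gbp genes form a cluster of 5 on chromosome 3 and a cluster of 5 on chromosome 5. Transcripts of Oas1a and Oas1g were 97.6% identical over 1861 bases, those of Ifit3 and Ifit3b 97.8% over 1700 bases, those of Ifi204 and Ifi211 96.9% over 1363 bases and those of Ifi208 and Ifi213 96.4% over 2749 bases. The annotated spans of Gbp4, Gbp8 and Gbp9 overlap on the same strand. How the authors' counting divided reads among such genes is not given in the sources used here, so the split between these partners is uncertain.

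Levels differed widely between members. Per kilobase of exon, the mean scaled count over 12 libraries was highest for Ifi27l2b, a small protein of the Ifi27 family, at 12659 per kb. Ifi30, a lysosomal thiol reductase used in antigen processing, followed at 2459 per kb, and Isg15, a ubiquitin-like protein attached to other proteins after interferon, at 1240 per kb. Among transcription factors, Irf7, a factor that amplifies type I interferon, stood at 768 per kb, and Stat3 at 273 per kb. Per kb the highest of the Gbp genes was Gbp2b at 65.4, and Gbp7, which had the highest mean scaled count among them before division by length (233), stood at 41.5.

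**Figure D2:**
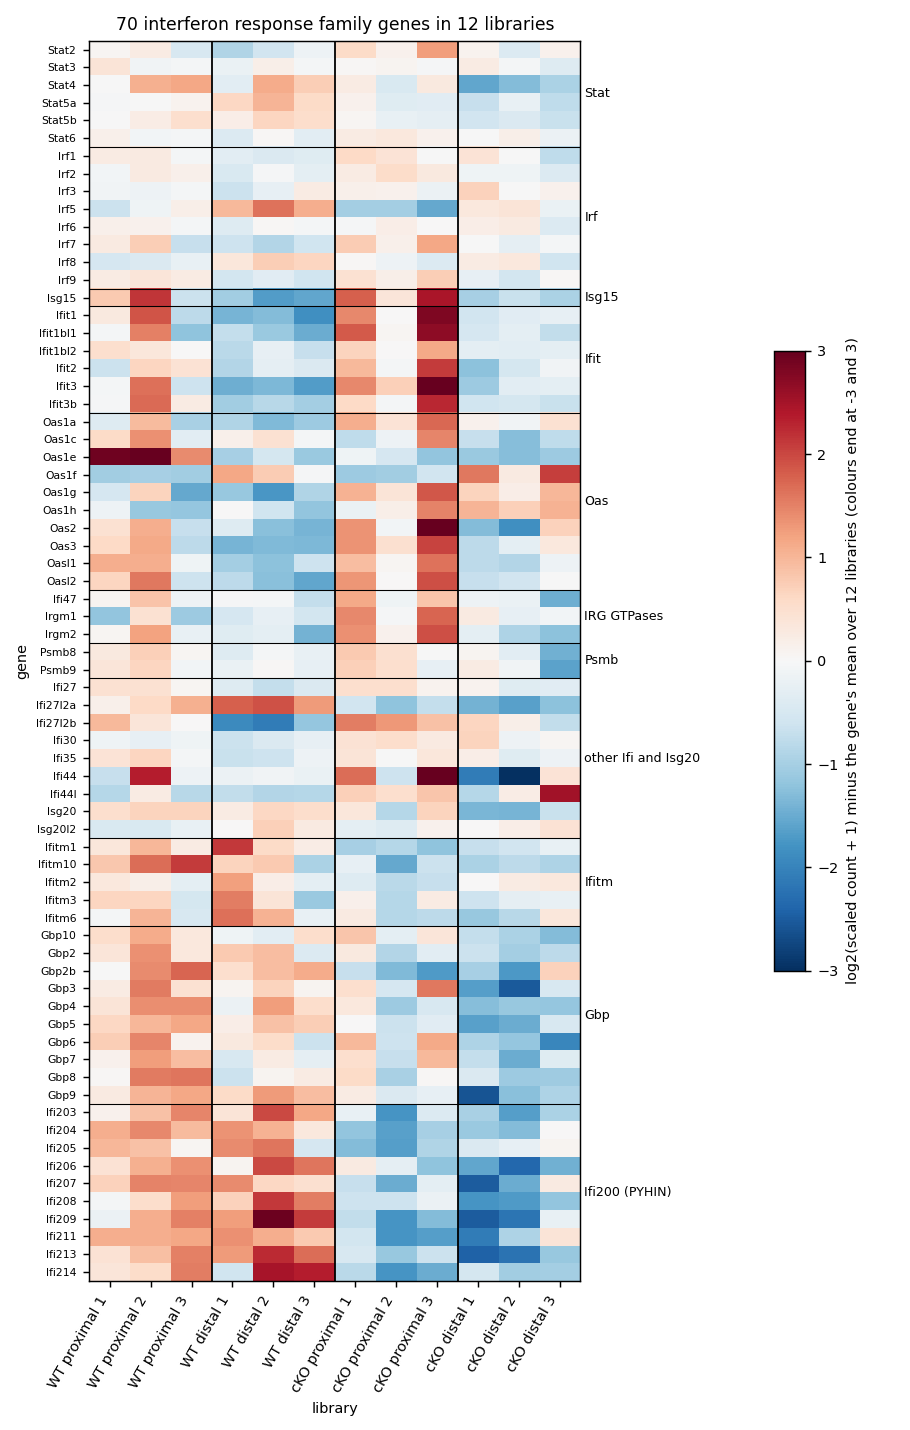
Heatmap of 70 of the 71 genes (rows, grouped by family) in the 12 libraries (columns); colour is log2(scaled count + 1) minus the gene's mean over the libraries, ending at -3 and 3. The Ifi200 rows are mostly blue in the 6 cKO libraries, and most of the Isg15, Ifit and Oas rows are redder in WT proximal 2 and cKO proximal 3 than in the other libraries of their groups.

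The question in the proximal segment was whether the interferon families differed between cKO and WT. Of the 71 members 16 were called: 1 was higher in cKO, Irgm1, and 15 were lower. Over all genes 8.26% were called, 4.21% higher and 4.05% lower, and among the members the share was 22.5%. Of the 15 that fell, 7 were Ifi200 genes and 3 were Gbp genes, and the others were Oas1e, Ifitm1, Ifitm10, Ifi27l2a and Irf5. The median log2 fold change of all 71 was -0.01, against 0.08 for all genes.

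The Ifi200 genes encode sensors of DNA and nuclear proteins, many with a pyrin domain and a DNA-binding HIN domain. In cKO proximal intestine 7 of 10 fell, the other 3 had negative log2 fold changes that did not pass, and the median was -1.99. Scaled counts are given in the order of libraries 1, 2 and 3. Whether groups overlapped is given as description only. Choosing genes by p favours separated groups, and the share over all genes is not given here. Ifi204, a nuclear DNA sensor, stood at 130, 167 and 119 in WT against 26.3, 19.1 and 29.8 in cKO, a log2 fold change of -2.43 (SE 0.38, limma adjusted p = 0.00223). Its near-identical partner Ifi211 stood at 36.8, 37.0 and 38.7 in WT against 11.1, 4.24 and 4.66 in cKO (log2 fold change -2.44, SE 0.54, limma adjusted p = 0.0161). Every WT library lay above every cKO library for both genes. Values of Ifi213 were 36.8, 51.6 and 78.5 in WT against 19.2, 11.7 and 16.8 in cKO, and those of Ifi205 were 58.9, 53.9 and 30.1 against 11.1, 8.48 and 14.9. Groups did not overlap in either gene, with log2 fold changes of -1.71 and -1.94. The log2 fold changes of Ifi209, Ifi207 and Ifi203 were -2.07, -2.04 and -1.63.

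Guanylate-binding proteins, the Gbp family, are large GTPases that coat and break open vacuoles of intracellular pathogens, and they are classic targets of interferon gamma. In the proximal segment 3 of 10 fell in cKO and the other 7 had negative log2 fold changes that did not pass, with a family median of -0.97. Gbp2b stood at 134, 367 and 460 in WT against 83.8, 54.0 and 41.0 in cKO (log2 fold change -2.29, SE 0.55, limma adjusted p = 0.0222). Gbp4 and Gbp5 had log2 fold changes of -1.48 and -1.25. Groups did not overlap in any of these 3 genes.

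The other proximal calls came from 4 families and the IRG GTPases. Oas1e belongs to the oligoadenylate synthetases, enzymes that make the second messenger for RNase L when they meet double-stranded RNA. Its scaled counts were 32.6, 52.8 and 10.7 in WT and 3.03, 2.12 and 0.932 in cKO, which rest on 85 reads in WT and 3 in cKO. The ratio of WT to cKO was 30.2, with an exact 95% counting interval of 10.1 to 152 that covers counting error only (limma adjusted p = 0.00269). Ifi27l2a, a small interferon-induced protein of the Ifi27 family, stood at 96.8, 131 and 184 in WT against 57.6, 37.1 and 52.2 in cKO (log2 fold change -1.44, SE 0.30, limma adjusted p = 0.0107). Ifitm10, whose family includes membrane proteins that block viral entry, had values of 9.47, 18.0 and 24.7 in WT and of 4.04, 1.06 and 2.80 in cKO. Irf5, a transcription factor downstream of Toll-like receptors in myeloid and B cells, had values of 193, 277 and 345 in WT and of 148, 149 and 104 in cKO, and fell by 0.99 on the log2 scale. None of these 4 genes overlapped between the groups.

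Irgm1, an IRG GTPase that regulates the other IRG proteins and autophagy, was the only member called higher. It stood at 256, 804 and 273 in WT against 1598, 571 and 1960 in cKO, a log2 fold change of 1.66 (SE 0.44, limma adjusted p = 0.0348). The groups overlapped, since WT proximal 2 lay above cKO proximal 2. The call was lost with TMM scaling (adjusted p = 0.0589) and in edgeR (adjusted p = 0.0685), and without any of WT proximal 1, WT proximal 3, cKO proximal 1 and cKO proximal 3, with an adjusted p of up to 0.130. Voom weights, a fit of only the groups compared, the mitochondrial share, the number as a block and leaving out both cKO libraries numbered 1 removed it too. The SE pools 4 groups. The median SD of the 3 IRG GTPases was 0.75 and 0.923 log2 units in proximal WT and cKO, against 0.383 and 0.473 distally.

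Isg15, the 6 Ifit genes and the other 9 Oas genes, products of the ISRE-driven response, showed 0 calls in this comparison in limma, edgeR and DESeq2, and 6 of these 16 had an unadjusted p under 0.05 in limma. Their spread between libraries was large. Isg15 stood at 984, 2526 and 364 in WT proximal against 1975, 728 and 3087 in cKO proximal libraries, so that the groups overlapped and the log2 fold change of 0.76 had an SE of 0.57. Ifit3, an antiviral protein that acts in complex with other Ifit proteins, stood at 320, 1044 and 215 in WT against 913, 551 and 2767 in cKO. Of these 17 genes with Oas1e, 14 were highest in WT proximal 2 and 14 lowest in WT proximal 3 among the WT proximal libraries. Among the cKO proximal libraries 16 were highest in cKO proximal 3 and 13 lowest in cKO proximal 2. The median standard deviation of the 17 genes was 0.988 and 0.983 log2 units in the proximal WT and cKO groups, against 0.304 and 0.321 in the distal groups. Over all genes it was between 0.267 and 0.352 in the 4 groups.

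The number of proximal calls depended on which libraries were kept. Counts over all genes in these fits are not given here, so a general loss of power was not told apart. The 16 calls became 14 without WT proximal 1, 7 without WT proximal 2 or without cKO proximal 1, 4 without WT proximal 3 or without cKO proximal 3, and 3 without cKO proximal 2. Without both WT proximal 2 and cKO proximal 3, chosen after seeing the data, 3 members were called, and the Ifi200 count went from 7 to 1. Only Ifi204 and Oas1e kept their call in each of these 6 single leave-outs. Adding the mitochondrial share to the model left 1 call, Oas1e, and Ifi204 had an adjusted p of 0.0505. The share did not overlap between the proximal groups, so this model cannot tell share and genotype apart there.

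**Figure D3:**
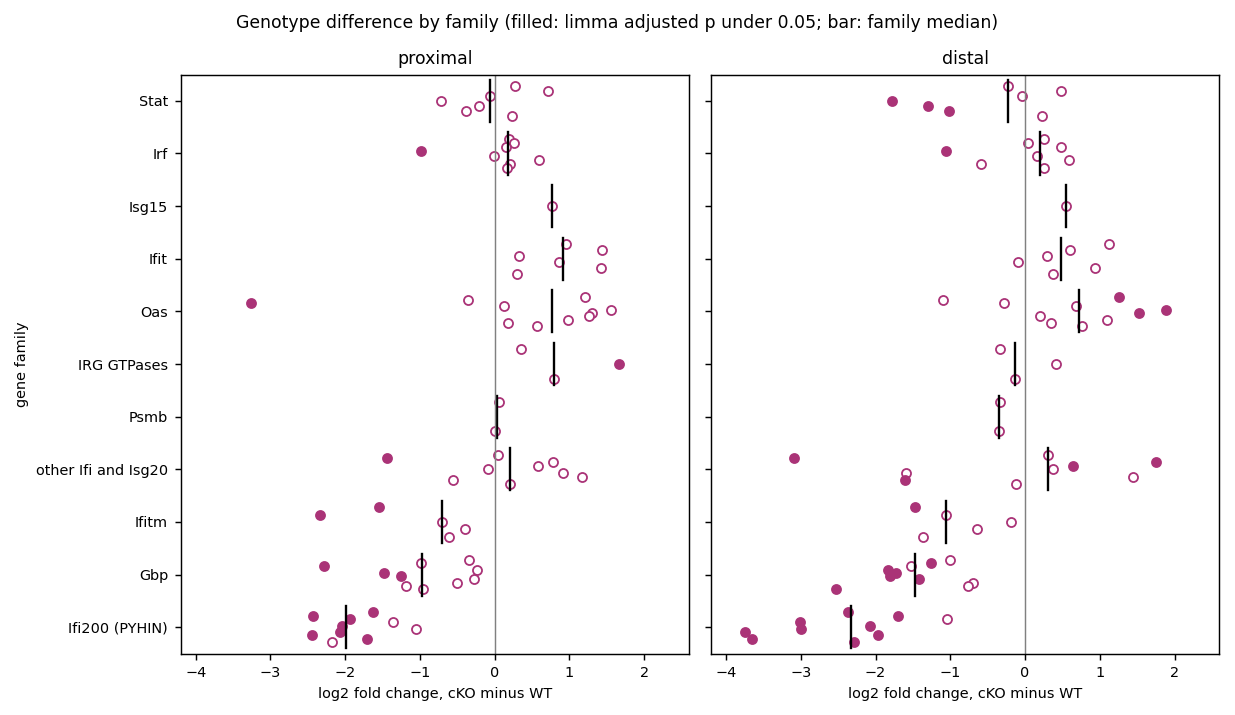
Log2 fold change of cKO minus WT (x axis) for each of the 71 genes by family (y axis), in the proximal and the distal segment. Filled points passed limma's adjusted p of 0.05, and bars mark family medians, which for the Ifi200 genes were -1.99 in the proximal and -2.33 in the distal segment.

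In the distal segment 27 of 71 members were called between cKO and WT, 5 higher and 22 lower. That is 38.0% of the members, beside 25.0% of all genes, of which 13.3% were higher and 11.7% lower. The median log2 fold change of the members was -0.34, against 0.06 for all genes. Among the 22 that fell were 9 Ifi200 genes, 6 Gbp genes, and Stat4, Stat5a and Stat5b. The other 4 were Irf5, Ifitm1, Ifi27l2a and Isg20. Those that rose were Oas1a, Oas1g, Oas1h, Ifi27l2b and Ifi30. The proximal and distal comparisons share no library, but their same-numbered libraries deviated together and the fit pooled 1 spread over all 12 libraries, so the comparisons are not independent.

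Of the 10 Ifi200 genes, 9 fell in distal cKO intestine, and Ifi205 had a log2 fold change of -1.04 that did not pass. Ifi209 stood at 257, 818 and 457 in WT against 18.0, 22.4 and 90.4 in cKO (log2 fold change -3.74, SE 0.59, limma adjusted p = 0.000515). Ifi213 stood at 67.0, 131 and 88.5 in WT against 4.24, 4.98 and 11.7 in cKO (log2 fold change -3.66, SE 0.43, limma adjusted p = 6.33e-05). For both genes the lowest WT library lay above the highest cKO library. Ifi208 had values of 57.2, 154 and 102 in WT and of 9.54, 9.96 and 14.9 in cKO. Ifi206 had values of 45.1, 171 and 131 in WT and of 13.8, 7.47 and 14.9 in cKO. Ifi203 had values of 173, 529 and 296 in WT and of 66.7, 41.5 and 68.1 in cKO. In these genes, too, the groups did not overlap, and the log2 fold changes of Ifi206 and Ifi203 were -3.01 and -2.37. That of Ifi208 had an SE of 0.42 and an adjusted p of 0.000223 in limma. Ifi214 was called with overlapping groups, since WT distal 1 at 6.09 lay below cKO distal 1 at 6.36. Within the cKO distal group, 9 of the 10 genes were highest in cKO distal 3.

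The family median was -2.33 distally. Under the alternatives tried it ranged from -3.03 to -1.96 distally and from -2.22 to -1.41 proximally. The number of Ifi200 genes that fell distally ranged from 5, in a model with the mitochondrial share, to 10, in DESeq2.

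Of the Gbp genes, 6 of 10 fell in distal cKO intestine and the other 4 had negative log2 fold changes that did not pass, with a median of -1.47. Gbp9 stood at 181, 296 and 230 in WT against 19.1, 49.8 and 62.7 in cKO (log2 fold change -2.53, SE 0.39, limma adjusted p = 0.000464). Gbp5, linked to inflammasome assembly, stood at 67.0, 107 and 97.0 in WT against 18.0, 19.9 and 41.5 in cKO, a log2 fold change of -1.80. Groups overlapped in neither gene. Gbp4, Gbp3, Gbp6 and Gbp2 had log2 fold changes of -1.73, -1.83, -1.42 and -1.25. A model with the mitochondrial share called 1 Gbp gene, Gbp9, and without any 1 of WT distal 1, WT distal 2, cKO distal 1 and cKO distal 2 the count was 3.

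Stat factors carry cytokine signals to the nucleus, and Stat2 carries those of type I interferon. Stat2 had a log2 fold change of 0.48 (SE 0.28) distally and did not pass. Stat5a and Stat5b, which act downstream of cytokines such as interleukin 2 and of growth hormone, both fell. Stat5a stood at 175, 232 and 170 in WT against 69.9, 97.1 and 67.0 in cKO (log2 fold change -1.30, SE 0.24, limma adjusted p = 0.00154). Stat5b stood at 427, 583 and 531 in WT against 248, 276 and 232 in cKO (log2 fold change -1.02, SE 0.19, limma adjusted p = 0.00153). All WT distal libraries lay above all cKO distal libraries in both. Stat4, which carries interleukin 12 and type I interferon signals in T cells, fell by 1.78. Of the Irf factors only Irf5 was called, with values of 599, 942 and 644 in WT and of 376, 397 and 266 in cKO (log2 fold change -1.06, SE 0.26). That call was lost without WT distal 2.

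Ifi27l2a had the smallest p of all members in this comparison. It stood at 301, 330 and 212 in WT distal against 31.8, 27.4 and 36.2 in the distal libraries of cKO. The log2 fold change was -3.09, with an SE of 0.30 (limma adjusted p = 1.93e-05). Its neighbour Ifi27l2b on chromosome 12 went the other way. It stood at 2832, 2460 and 4756 in WT against 16590, 12004 and 6346 in cKO, a log2 fold change of 1.75 (SE 0.37, limma adjusted p = 0.00406). Groups overlapped in neither. The longest aligned block of these transcripts was 87.3% identical over 276 bases. Ifi30 stood at 1484, 1731 and 1956 in WT against 3689, 2101 and 2441 in cKO, and rose by 0.64 on the log2 scale.

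Among the Oas genes, 3 of 10 rose in distal cKO intestine and 0 fell. Counted in either direction, that is near the 25.0% of all genes called distally (13.3% higher and 11.7% lower). Oas1g stood at 183, 119 and 216 in WT against 648, 465 and 805 in cKO (log2 fold change 1.89, SE 0.47, limma adjusted p = 0.00987). Oas1a, whose transcript and promoter stretch are nearly or fully identical to those of Oas1g, stood at 419, 314 and 369 in WT against 854, 729 and 1068 in cKO (log2 fold change 1.26, SE 0.40, limma adjusted p = 0.0348). Every cKO library lay above every WT library for both genes. Oas1h rested on 3 reads in WT and 21 in cKO, a ratio of 5.97 with a counting interval of 1.87 to 32.8. The Oas1a call held in 7 of 19 alternatives, and was lost in edgeR, with TMM scaling and without each of the 6 libraries in turn. The Oas1h call held in only 4 of 18. Its losses included edgeR, DESeq2, TMM scaling, voom weights, the model with the mitochondrial share and 5 of the 6 single leave-outs. The Oas1g call was lost without WT distal 2, in the model with the mitochondrial share, and without both cKO libraries numbered 1.

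Isg15 and the Ifit genes had 0 calls distally in limma, edgeR and DESeq2, with 0 of 7 at an unadjusted p under 0.05 in limma. Isg15 stood at 276, 178 and 192 in WT against 284, 358 and 293 in cKO, where the groups did not overlap but the log2 fold change of 0.55 had an SE of 0.57. Ifit3 stood at 119, 131 and 104 in WT against 157, 268 and 272 in cKO, again without overlap, with a log2 fold change of 0.93 (SE 0.56). The SE comes from the spread over all 4 groups, including the proximal libraries described above. Without WT proximal 2 and cKO proximal 3, chosen after seeing the data, 6 of the 17 Isg15, Ifit and Oas genes were called higher distally, in place of 3. These 2 libraries were the highest of their groups for 14 and 16 of the 17 genes. Leaving them out narrows the pooled spread of these genes, so no conclusion is drawn from the added calls. The count over all genes in that fit is not given here. Isg15 was not called distally under any alternative. Psmb8 and Psmb9, subunits of the immunoproteasome, did not pass in limma in any of the 5 comparisons, and Psmb9 stood at 878, 1035 and 848 in WT distal against 1192, 939 and 331 in cKO distal libraries.

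**Figure D4:**
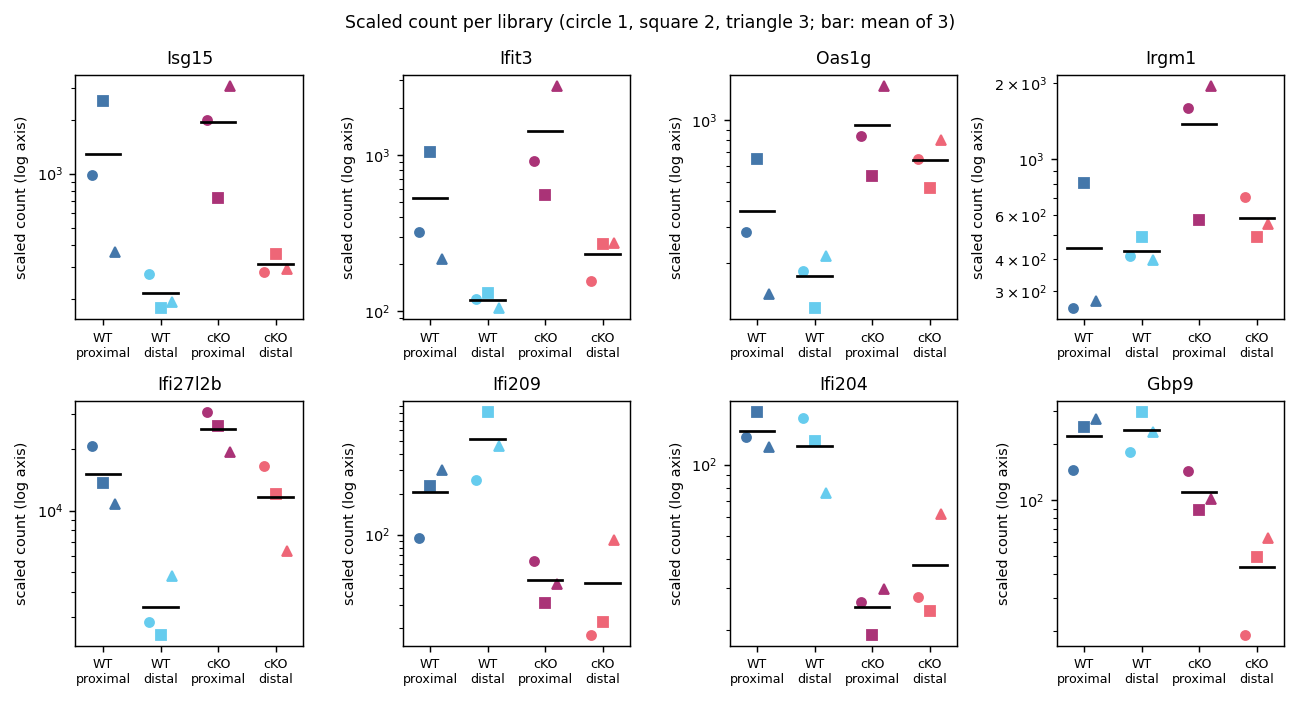
Scaled count (y axis, logarithmic) of 8 genes in each library of the 4 groups (x axis); symbols mark libraries 1, 2 and 3 and bars the mean of 3. Isg15 and Ifit3 are higher in the proximal groups and widely spread there, whereas every cKO library lies below every WT library for Ifi209, Ifi204 and Gbp9; the closest values, of Gbp9, are 145 in WT proximal 1 and 142 in cKO proximal 1.

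Of the 27 distal calls 15 held when any 1 library was left out. The 12 that were lost without at least 1 library were Ifi207, Ifi211, Ifi214, Gbp2, Gbp3, Gbp6, Ifi30, Ifitm1, Irf5, Oas1a, Oas1g and Oas1h. The count fell to 17 without WT distal 2, to 18 without cKO distal 1 and to 11 in the model with the mitochondrial share.

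Several Ifi200, Gbp and Irf genes are also expressed in immune cells, so markers of such cells were measured beside them. Of 6 B and plasma cell markers, 3 fell in proximal and 6 in distal cKO intestine. Their summed scaled count ranged from 1402 to 4313 in WT proximal, 8201 to 19994 in WT distal, 410 to 704 in cKO proximal and 223 to 552 in cKO distal libraries. Of 10 myeloid markers, 6 fell proximally and 5 distally, and the sum ranged from 11690 to 18533 in WT proximal and 6410 to 24464 in WT distal, against 3302 to 4585 in cKO proximal and 3915 to 6067 in cKO distal libraries. The marker Cd209a had 0 reads in all cKO proximal libraries, and in no other list of markers was a gene at 0 in a whole group. Of 9 T cell and intraepithelial lymphocyte markers, 1 fell proximally and 2 distally, or 11.1% and 22.2%, near the shares of all genes. The sum was 11076 to 29870 in WT proximal and 8251 to 18802 in cKO proximal libraries, and 1576 to 3343 and 1685 to 4077 in the distal ones. Of 6 fibroblast markers 0 were called by limma and edgeR in either segment, 2 had an unadjusted p under 0.05 proximally and 0 distally, and DESeq2 called 3 lower proximally. All 6 had negative log2 fold changes in both segments, with medians of -1.47 proximally and -0.72 distally. Their sum spread widely in WT, from 1641 to 11340 proximally and 1231 to 13777 distally. In cKO it was 1310 to 2031 proximally and 3281 to 3462 distally. Of 4 endothelial markers Pecam1 fell in both segments, or 25.0% in each. Among 6 epithelial markers, Cdh1 and Epcam rose distally, or 33.3%, beside 25.0% of all genes. Proximally 0 of the 6 passed in limma and edgeR (0 at an unadjusted p under 0.05 in limma, 1 lower in DESeq2). The part of these cells and of the mitochondrial share in the fall of the interferon families was not tested.

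The distal segment was next compared with the proximal segment within WT. Of 71 members 19 were called, 6 higher and 13 lower distally, or 26.8%, beside 24.1% of all genes (11.9% higher and 12.2% lower). With the number within each genotype as a replicate block 28 members were called, 7 higher and 21 lower, beside 28.7% of all genes. The 13 lower without the block were made up of Isg15, 4 Ifit genes, 4 Oas genes, Irf9, Ifi27, Ifi27l2b and Ifi35. The median log2 fold change of the members was -0.37, against 0.05 for all genes.

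Isg15 was at a mean of 1291 ± 1110 (SD, n = 3) proximally and of 215 ± 53.3 distally in WT, with every proximal library above every distal one (log2 fold change -2.19, SE 0.57, limma adjusted p = 0.013). Ifit1, which binds viral RNA lacking cap methylation, had a log2 fold change of -1.98 there, and Ifit3 one of -1.81. Oasl1, an Oas-like protein that restrains Irf7 translation, stood at 3550, 3519 and 1521 proximally and at 821, 709 and 1075 distally (log2 fold change -1.64, SE 0.38, limma adjusted p = 0.0067). Oas3 and Oasl2 had log2 fold changes of -1.67 and -1.72. Oas1e had 85 reads proximally and 1 distally, a ratio of 90.4 with a counting interval of 14.6 to 3345. Ifi27l2b fell by 2.17, from 20812, 13633 and 10723 to 2832, 2460 and 4756. Irf9, the DNA-binding partner of Stat2, fell by 0.79, and its proximal and distal libraries did not overlap.

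Higher in distal WT intestine were Irf5, Irf8, Ifi27l2a, Oas1f, Isg20l2 and Stat5a. Irf5 rose from 193, 277 and 345 to 599, 942 and 644 (log2 fold change 1.43, SE 0.26, limma adjusted p = 0.00139). Irf8, a factor of myeloid and B cells, rose from 1365, 1445 and 1662 to 2439, 3238 and 3051 (log2 fold change 0.96, SE 0.23). Groups did not overlap in either. Oas1f had 0 reads in WT proximal and 13 in WT distal intestine, at least 1.49-fold higher against a floor of 3 reads per library. All 6 B and plasma cell markers rose distally in WT, and 6 of 9 T cell and intraepithelial lymphocyte markers fell while 1, Cd2, rose. Their part in these differences was not tested. The 19 calls became 7 without WT proximal 2, 9 without WT distal 2 and 12 without WT proximal 1. The 7 members that kept their call under all alternatives tried were Ifi27, Ifi27l2b, Irf5, Irf8, Irf9, Oas1e and Oasl1.

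In cKO, 15 of 71 members were called between the segments, 2 higher and 13 lower distally. That is 21.1%, beside 10.5% of all genes, of which 4.16% were higher and 6.36% lower. The median of the members was -0.72, against -0.02 for all genes. Both that rose, Irf5 and Oas1f, had risen in WT as well. Irf5 stood at 148, 149 and 104 proximally and at 376, 397 and 266 distally (log2 fold change 1.36, SE 0.26, limma adjusted p = 0.00359). Oas1f had 1 read proximally and 29 distally, a ratio of 32.0 with a counting interval of 4.73 to 1165.

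Among the members lower in distal cKO intestine were Isg15, Ifit2, Ifit3, Ifit1bl2, Oas3, Oasl1, Gbp3, Gbp6, Gbp9, Irgm2, Irf2 and Irf9. Isg15 was at a mean of 1930 ± 1180 proximally and of 312 ± 40.5 distally (log2 fold change -2.40, SE 0.57, limma adjusted p = 0.015). Ifit3 had a log2 fold change of -2.30 and Gbp3 one of -2.07, the latter with overlapping groups. Irgm2, an IRG GTPase of the Golgi, stood at 953, 406 and 1421 proximally and at 299, 195 and 156 distally (log2 fold change -1.97, SE 0.46, limma adjusted p = 0.0141). Same-numbered proximal and distal libraries deviated together. With the number within each genotype as a replicate block 32 members were called, 3 higher and 29 lower, beside 15.1% of all genes. The 15 calls became 2 without cKO proximal 3, 3 without cKO proximal 1, 6 without cKO distal 2, 9 without cKO distal 1 and 25 without cKO proximal 2. Irf5 and Oas1f kept their call in each single leave-out, and without both cKO libraries numbered 1 only Irf5 was called.

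**Figure D5:**
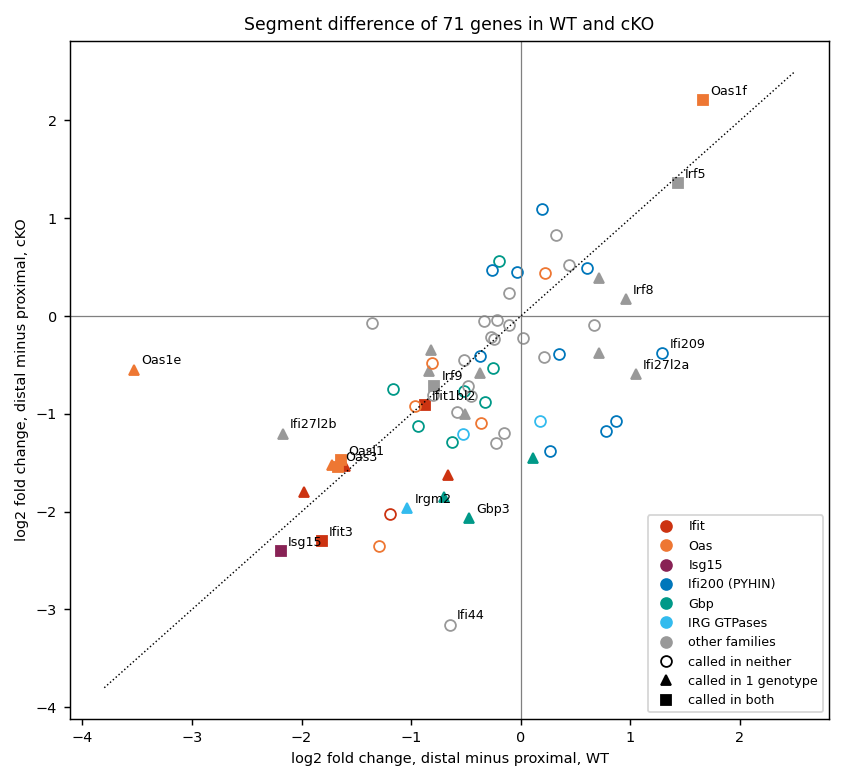
Log2 fold change of distal minus proximal in WT (x axis) against the same in cKO (y axis) for each of the 71 genes; colours mark families, open circles genes called in neither genotype, triangles in 1 and squares in both. Isg15, Ifit3, Oas3, Oasl1, Ifit1bl2 and Irf9 lie below 0 and Irf5 and Oas1f above 0 in both genotypes; the dotted line marks equal values.

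Whether the genotype difference itself differed between segments was tested as an interaction, the distal minus the proximal effect. In limma 0 of 71 members passed, with 9 at an unadjusted p under 0.05, beside 0.576% of all genes called. edgeR called 0 as well, and DESeq2 called 2, Ifi27l2a (log2 difference -1.67, adjusted p = 0.0188) and Stat5a (log2 difference -1.10, adjusted p = 0.0297). With the replicate block, limma called 2, Gbp3 (log2 difference -1.59, adjusted p = 0.0229) and Oas1e (log2 difference 2.98, adjusted p = 0.0422), beside 2.68% of all genes. Gbp3 stood at 169, 420 and 196 in WT proximal, 201, 99.6 and 426 in cKO proximal, 150, 227 and 152 in WT distal and 44.5, 24.1 and 102 in cKO distal libraries. Oas1e had at most 3 reads per group outside WT proximal, so its fitted difference depends on the added 1. Without WT proximal 3, Oas1e was also called with no block (log2 difference 3.60, adjusted p = 0.0221).

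Genes with and without an ISRE core were set side by side. Among the 30 genes with a core, 1 rose and 7 fell in cKO proximally and 2 rose and 11 fell distally. Among the 28 with a window and no core, 0 rose and 4 fell proximally and 2 rose and 6 fell distally. Among the 13 with no window, 0 rose and 4 fell proximally and 1 rose and 5 fell distally. Over all genes 8.26% were called proximally and 25.0% distally. The genes with a core include 8 Ifi200 and 5 Gbp genes that lie in clusters of close copies, so they are not independent. Both directions occurred among genes whose stretches are printed above: Oas1a and Oas1g rose distally, and Ifi208, Ifi213, Ifi206, Ifi203 and Gbp5 fell.

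Upstream of these families, 1 of 11 listed interferon ligand genes was in the table, Ifng, the gene of interferon gamma. It stood between 0.83 and 16.8 scaled counts in the 12 libraries, with 0 reads in all cKO distal libraries, and did not pass in limma in any comparison, with an unadjusted p of 0.0292 between the segments in cKO. All 9 receptor and kinase genes were measured. In distal cKO intestine 4 rose and 1 fell, or 55.6%, beside 25.0% of all genes. Ifnlr1, the receptor chain specific for interferon lambda, rose by 1.69 (adjusted p = 0.00305 in limma), Ifngr1 of the interferon gamma receptor by 1.03 and Il10rb, the other chain for lambda, by 0.70, while the kinase Jak1 fell by 0.61. The 4 that rose became 0 in the model with the mitochondrial share, and 2 without any 1 of WT distal 1, WT distal 2 and cKO distal 1. The Jak1 call was lost with the number as a block shared by both genotypes, and without each of the 6 libraries in turn except WT distal 1. In the proximal segment Ifnar2, a chain of the type I receptor, was the only one called, and rose by 1.13.

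Of 18 nucleic acid sensors and adaptors measured, 1 rose and 2 fell proximally, and 3 rose and 5 fell distally in cKO. That is 16.7% proximally and 44.4% distally, beside 8.26% and 25.0% of all genes. Tlr9 and Tlr7, endosomal receptors of DNA and RNA, fell in both segments, Tlr9 with log2 fold changes of -2.29 proximally and -4.48 distally. Both proximal falls were lost in the model with the mitochondrial share and without any 1 of WT proximal 2, WT proximal 3, cKO proximal 2 and cKO proximal 3. The 3 distal rises became 0 in that model and without cKO distal 1 or cKO distal 2, and 1 without WT distal 1 or WT distal 2. Of 11 negative regulators 0 rose and only Ptpn6, a phosphatase of blood cells, fell in both segments. Its proximal call was lost without cKO proximal 2 and in the model with the mitochondrial share, and edgeR called 3 of the 11 lower distally.

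Of 34 other interferon-induced antiviral genes, 5 rose and 2 fell proximally, and 2 rose and 6 fell distally in cKO. That is 20.6% proximally, beside 8.26% of all genes, and 23.5% distally, near the 25.0% of all genes. Apobec3, a cytidine deaminase that restricts retroviruses, fell from 696, 1213 and 767 in WT distal to 80.5, 52.3 and 71.2 in cKO distal libraries (log2 fold change -3.67). The nuclear body genes Sp140 and Sp110 had log2 fold changes of -3.65 and -3.12, whereas Lgals3bp, a secreted glycoprotein, rose by 2.17 distally and 1.20 proximally. The genotype effect on Sp140 and Sp110 differed between segments (log2 difference -3.25, limma adjusted p = 0.0137, and -2.44, limma adjusted p = 0.0340), and neither passed without WT distal 2. Sp110 was also lost when WT proximal 1, cKO distal 1, WT proximal 2, cKO distal 2, cKO proximal 1 or cKO proximal 3 was left out singly, and with voom weights. Both were lost without both cKO libraries numbered 1, and without WT proximal 2 and cKO proximal 3 together. The median log2 difference was -3.51 for B and plasma cell, 0.575 for T cell and 0.41 for myeloid markers. Of the 6 B and plasma cell markers 0 were called in limma and 6 had an unadjusted p under 0.05. The part of these cells was not tested. The proximal count of antiviral genes that rose was 0 in edgeR, in the model with the mitochondrial share, and without any 1 of WT proximal 3, cKO proximal 1 and cKO proximal 3. Distally against proximally, 2 rose and 7 fell in WT, and 0 rose and 14 fell in cKO. That is 26.5% in WT, near the 24.1% of all genes, and 41.2% in cKO, beside 10.5% of all genes. The 7 became 4 without any 1 of WT proximal 1, WT proximal 2 and WT distal 2. The 14 became 4 without cKO proximal 3, 6 without cKO proximal 1, 7 without cKO distal 2 and 9 without cKO distal 1.

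Of 16 other genes induced by interferon gamma, 1 rose and 3 fell proximally, and 1 rose and 6 fell distally in cKO. The called share was 25.0% proximally and 43.8% distally, beside 8.26% and 25.0% of all genes. Ido1, which breaks down tryptophan, fell by 2.34 proximally, and Casp4, the gene of caspase-11, rose by 1.65. Distally Cd274, the checkpoint ligand PD-L1, fell by 1.74, and Ciita, the master regulator of class II antigen presentation, had a log2 fold change of -2.89. With the mitochondrial share 1 of these 16 fell proximally and 2 distally. Proximally the falls also became 1 without any 1 of WT proximal 2, WT proximal 3, cKO proximal 2 and cKO proximal 3, and distally they became 3 without WT distal 2.

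MHC class I molecules present peptides to T cells. Of 20 genes of class I and its peptide loading measured, 0 were called proximally in limma (DESeq2 called 1 higher and 1 lower, edgeR 0, and 4 had an unadjusted p under 0.05), and 10 rose and 2 fell in distal cKO intestine. Those with the smallest p that rose were Erap1, a peptide-trimming enzyme, by 1.10, and Pdia3, a chaperone of the loading complex, by 0.94, together with H2-Q1 by 1.06. H2-M3, a nonclassical class I gene, fell by 2.09. In the model with the mitochondrial share the 10 became 0, and they became 2 without cKO distal 1, 3 without WT distal 1 and 4 without WT distal 2. Among 14 constitutive proteasome subunits 0 were called in any comparison by limma and edgeR, with at most 4 at an unadjusted p under 0.05 in limma. DESeq2 called 1 higher proximally in cKO and 1 lower distally in WT.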

How the data were processed

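Expression was measured by RNA sequencing in 12 libraries of mouse small intestine, 3 in each of 4 groups. Extraction used Trizol and library synthesis the NuGEN Ovation V2 system, per the labels' protocols. STAR, DESeq2 1.28.1 and the mm10 build are named in the submitters' processing notes. How reads were assigned to genes is not given in the sources used here. The values the authors deposited are a signal, (reads + 1) divided by a size factor: of 206100 values, 0 were off a whole multiple of their column's step by more than 0.001 steps (100% whole), so whole reads could be recovered. The design had assumed counts might be found; the deposited signal was instead tested with limma 3.58.1 in R 4.3.3 (trend, empirical Bayes) on log2(value + 1), with 4 group means, 12 libraries and Benjamini-Hochberg adjustment over 17175 genes. Requiring values of 1 or more in 3 libraries removed no gene.

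edgeR 4.0.16 and DESeq2 1.42.0 were run on the recovered reads as alternatives, as were TMM scaling, voom weights, pseudocounts of 0.25 and 8, a mean of at least 10, the mitochondrial share as a covariate and leaving out libraries. The deposited p-values, log2 fold changes, their standard error and the deposited Wald score belong to cKO proximal against WT distal intestine and were not used for results. Same-numbered proximal and distal libraries of a genotype share a name in the labels, and their deviations correlated at 0.158 to 0.323, so the numbers were taken to pair segments. Between genotypes the correlations were -0.148 to 0.0487, and the numbers were not taken to pair. An alternative fit of the genotype comparisons still used the number as a block shared by both genotypes. The script was tested on simulated data.

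Genes and lists were chosen with earlier results of these data known. Named were the 10 largest called changes in each direction and each family's most abundant member by mean scaled count, with library values for up to 10 called members by p in each genotype comparison. Up to 4 genes by p were named per list. Other genes named, such as Stat2, Stat4, Gbp2, Gbp4, Lgals3bp, Tlr7 and H2-M3 where outside these limits, were chosen after their values were seen. Transcripts were aligned with blastn 2.17.0. Promoter sequence is from RefSeq. Of the 71 members, 1 is counted but not reported by name.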

Additional observations from a re-analysis of the deposited data

How the results depend on the processing

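Of the called members, 0 changed direction under any alternative. The call held under every alternative for 9 of 27 members between genotypes distally (Gbp9, Ifi203, Ifi206, Ifi208, Ifi209, Ifi213, Ifi27l2a, Stat5a and Stat5b), 0 of 16 proximally, 7 of 19 between segments in WT and 1 of 15 in cKO, Irf5. With the mitochondrial share as a covariate the counts of called members were 1 proximally and 11 distally between genotypes, and 18 of the 27 distal calls were lost. The share is confounded with genotype proximally, and in part distally, so these losses do not tell share and genotype apart. Without both cKO libraries numbered 1 the counts of called members were 7 proximally, 17 distally and 1 between segments in cKO. Without WT proximal 2 and cKO proximal 3, chosen after seeing the data, they were 3 proximally, and 11 in WT and 5 in cKO between segments. DESeq2 called 27 between segments in cKO, in place of 15, and 2 in the interaction, in place of 0. Leaving out 1 library at a time gave 3 to 14 proximally and 17 to 29 distally between genotypes, 7 to 21 in WT and 2 to 25 in cKO between segments, and 0 to 1 in the interaction. Counts over all genes under these alternatives are not given here. A general change in power was therefore not told apart from a change among the members.

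Between segments and in the interaction, the replicate block was each of 6 sources, a genotype with its number. With it, 28 members were called in WT and 32 in cKO between segments, and 2 in the interaction. Between genotypes the block was the number alone, shared by WT and cKO, although the numbers were not taken to pair genotypes. In that fit 12 members were called proximally and 25 distally. Under edgeR and voom the median of all genes in the proximal genotype comparison moved from 0.08 to -0.02, so small proximal differences depend on scaling. Members with few reads, such as Oas1e, Oas1f and Oas1h, rest on counts that limit their precision.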
